A study of Mus musculus with 4 samples.

Results

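Spry2, Spry4, Myc and Fosl1 are 4 genes whose transcription is known to respond to the kinase ERK. They were taken by symbol from the authors' deposited table of 1593 mouse genes, and all 4 had a row. The table comes from RNA sequencing of 46C mouse embryonic stem cells, whose Sox1 locus carries a green fluorescent protein gene, in 4 libraries. The PC group (2 libraries) received the protein kinase D inhibitor CID755673 together with 1 µM PD0325901 in serum, and the PD group (2 libraries) received 1 µM PD0325901 in serum alone. PD0325901 inhibits MEK, the kinase that activates ERK, so MEK was inhibited in every library, and the design holds no cells without PD0325901. Treatment lasted 24 h. The sources used here give no dose for CID755673, and both groups are 1 cell line. The labels do not state that the replicates were cultured separately, so the p-values reflect only the spread among these samples, and that spread may be technical.

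Growth factors such as FGF4 act through receptor kinases, RAS, RAF and MEK to switch on ERK, and in mouse embryonic stem cells this route favours exit from the naive state, which is why MEK inhibitors are used to hold cells in it. ERK raises transcription of its own inhibitors, the Sprouty proteins and the dual-specificity phosphatases, so that their transcripts serve as a readout of the pathway. ERK also induces growth and immediate early transcription factors, among them MYC and the AP-1 subunits FOS, FOSB and FOSL1.

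The deposited table had been selected on the comparison described here. In the authors' test of 31432 genes, every gene it holds had changed by at least 1 on the log2 scale, with no p-value above 0.0498, so a difference between PC and PD was fixed for every member by its presence in the table. Other genes are not analysed here. Values are normalized reads, the reads of a gene divided by 1 size factor per library. Reads on the listed genes came to 601713 and 433684 in the PC libraries and 632042 and 683777 in the PD libraries, and the full depth is unknown. Of 11 embryonic stem cell markers, Utf1, Lin28a, Dnmt3l and Tdh were listed. The summed level of these 4 was 16923.4 and 16307.1 normalized reads in PC and 42592.6 and 43898.9 in PD. The other markers, Pou5f1, Nanog, Sox2, Klf4, Esrrb, Zfp42 and Dppa5a, are not analysed here. The sum therefore describes the listed markers and not stem cell identity.

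For Spry2 a RefSeq promoter window was at hand (build GRCm38.p6), and it is shown because it was the 1 window available for the 4 genes. Windows for Spry4, Myc and Fosl1 were not at hand. The first line is the 250 bases before the annotated start at chr14:105896820-105897069, minus strand, read 5′ to 3′. The second line is the 30 bases at chr14:105896770-105896799 of the same strand, inside the transcript, with the ETS core CCGGAA in capitals.

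Spry2 upstream: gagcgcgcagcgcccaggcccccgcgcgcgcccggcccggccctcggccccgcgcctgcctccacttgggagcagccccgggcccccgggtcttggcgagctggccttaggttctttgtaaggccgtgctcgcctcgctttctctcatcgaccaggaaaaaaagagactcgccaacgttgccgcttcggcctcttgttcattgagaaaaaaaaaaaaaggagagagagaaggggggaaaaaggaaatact
Spry2 site: gaggtcatctatcCCGGAAtccgggagggt

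Of the motifs searched, the ETS core in the form CCGGAA was the 1 found in the window, and it began 34 bases into the transcript. Shorter forms such as GGAA, which the upstream bases hold, were not searched. ERK phosphorylates some members of the ETS family of transcription factors. On either strand, CCGGAA occurred in 14.9% of 32851 RefSeq windows of the same length. The AP-1 motif TGANTCA (in 7.81% of windows), the E-box CACGTG bound by MYC (7.15%) and the serum response element (1.63%) did not occur in the Spry2 window. The motifs searched do not overlap each other there. Of the 250 upstream bases 62.4% were G or C, against a median of 52.4% over all windows. These matches describe letters and not binding.

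All 4 genes had lower values with CID755673. Spry2 and Myc fell, while Spry4 and Fosl1 did not pass the test, although Spry4 had the largest fold difference between group means. PC means were 46.1% of the PD mean for Spry2, 34.2% for Myc, 30.1% for Fosl1 and 15.5% for Spry4. In each of the 4 genes both PC libraries lay below both PD libraries. That was so for 61.5% of all listed genes, and in 99.7% the groups did not overlap in one direction or the other, so the separation follows from how the table was made. In bulk RNA, fewer cells that express a gene and less RNA per cell cannot be told apart.

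**Figure D1:**
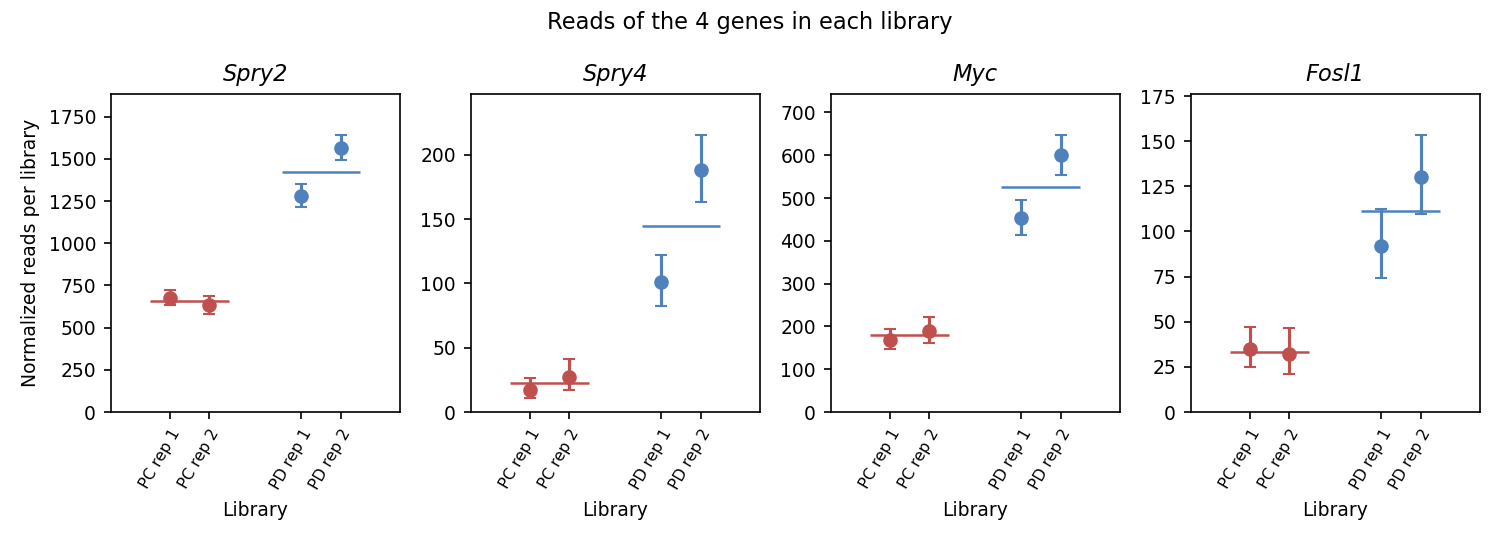
Normalized reads (y axis, linear from 0) of Spry2, Spry4, Myc and Fosl1 in each PC and PD library (x axis). Points are libraries, bars are exact 95% Poisson intervals for counting error, and horizontal lines are group means; every PC point lies below every PD point, and PD replicate 2 lies above PD replicate 1 in all 4 genes.

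Spry2 encodes Sprouty 2, a membrane-associated inhibitor of receptor kinase signalling to RAS and ERK. It had 677.7 and 634.1 normalized reads in the PC libraries, against 1281.0 and 1565.4 in the PD libraries. The PC libraries were close to each other and their 95% counting intervals overlapped (632.0 to 725.8 and 581.4 to 690.2), whereas the intervals of the PD libraries did not (1212.8 to 1351.9 and 1492.0 to 1641.4). On the log2(value + 1) scale Spry2 fell by 1.11 (SE 0.13; limma with Benjamini-Hochberg adjustment over all 31432 genes, adjusted p = 0.028). This was a small change for the table, 866th in size of the 980 lower genes. By level, 5.59% of the listed genes had a higher PD mean.

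Spry4 encodes Sprouty 4, a related inhibitor of the same route. It had 17.4 and 27.4 normalized reads in the PC libraries, from 21 and 23 reads, against 100.8 and 187.9 in the PD libraries, from 104 and 205 reads. Its coefficient of variation was 31.5% in PC and 42.6% in PD, in each group the largest of the 4 genes. Counting intervals of Spry4 overlapped within PC (10.8 to 26.6 and 17.3 to 41.1). Within PD they did not (82.4 to 122.2 and 163.0 to 215.4). The log2 change was -2.60 (SE 0.42), and it did not pass (limma, Benjamini-Hochberg adjusted p = 0.0751). Depending on which libraries are paired, the PD value was between 3.69 and 10.8 times the PC value.

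The Sprouty genes were compared with each other within libraries. The log2 ratio of Spry4 to Spry2 was -5.21 and -4.48 in the PC libraries, against -3.65 and -3.05 in the PD libraries. Spry4 thus stood lower relative to Spry2 in both PC libraries, with a difference of -1.49 between the group means of the ratio. An exact two-sided permutation test gave p = 0.333, which is the smallest value it can give for 2 libraries against 2. The test could not have passed whatever the ratios, so it does not bear on whether the Sprouty genes changed by unequal amounts.

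Myc encodes a transcription factor that promotes growth and ribosome production and helps embryonic stem cells self-renew. It had 169.0 and 190.3 normalized reads in the PC libraries, against 452.8 and 599.4 in the PD libraries. Counting intervals overlapped within PC (146.6 to 193.9 and 162.0 to 222.2) and did not overlap within PD (412.7 to 495.8 and 554.3 to 647.1). The fall of Myc was -1.53 in log2 units (SE 0.18; limma, Benjamini-Hochberg adjusted p = 0.0277), and its place by size was 486th of the 980 lower genes. The median change of those 980 genes was -1.53, so Myc stood at their middle.

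Fosl1 encodes FRA1, a subunit of the dimeric factor AP-1. It had 34.8 and 32.1 normalized reads in the PC libraries, from 42 and 27 reads, against 92.1 and 130.1 in the PD libraries, from 95 and 142 reads. The PC libraries were nearly equal, and the counting intervals of the PD libraries overlapped slightly (74.5 to 112.6 and 109.6 to 153.4). The log2 change was -1.68 (SE 0.28), which did not pass (limma, Benjamini-Hochberg adjusted p = 0.0844). In GENCODE M21 the exons of Fosl1 overlap those of Ccdc85b on the other strand. The strand setting of the counting is not stated by these sources. How reads from the stretch that Fosl1 and Ccdc85b share were counted is therefore not known, and the length of that stretch was not measured. Exons of Spry2, Spry4 and Myc overlap no other gene in that annotation.

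limma with Benjamini-Hochberg adjustment called 495 of the 1593 listed genes (31.1%), and 316 of them were lower in PC, which is 19.8% of the listed genes. Among those called, 83 had 0 reads in both libraries of 1 group, so that group showed no spread. Of the 4 genes here 2 were called, both lower. Leaving out any 1 library left 1 residual degree of freedom and the spread of 1 group only. Calls from those fits are therefore not read, and their log2 changes ran from -1.25 to -0.97 for Spry2 and -1.74 to -1.33 for Myc. Neither Spry2 nor Myc stayed called with 1 common prior for the spread (limma, Benjamini-Hochberg adjusted p of 0.226 and 0.183). Without size factors neither was called (limma, Benjamini-Hochberg adjusted p of 0.481 and 0.277). That fit leaves depth differences uncorrected, and the size factors within PC were 1.207 and 0.841. In the authors' deposited table all 4 genes had a false discovery rate under 0.05, as had 43.9% of the listed genes in the same direction. The rates ran from 9.66e-15 for Spry2 to 2.92e-05 for Fosl1, and the genes ranked 633rd (Spry2), 802nd (Myc), 1376th (Spry4) and 2285th (Fosl1) by p among the 31432 genes. That was also the order of their PD means, while by size of change the order ran Spry4, Fosl1, Myc and Spry2.

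**Figure D2:**
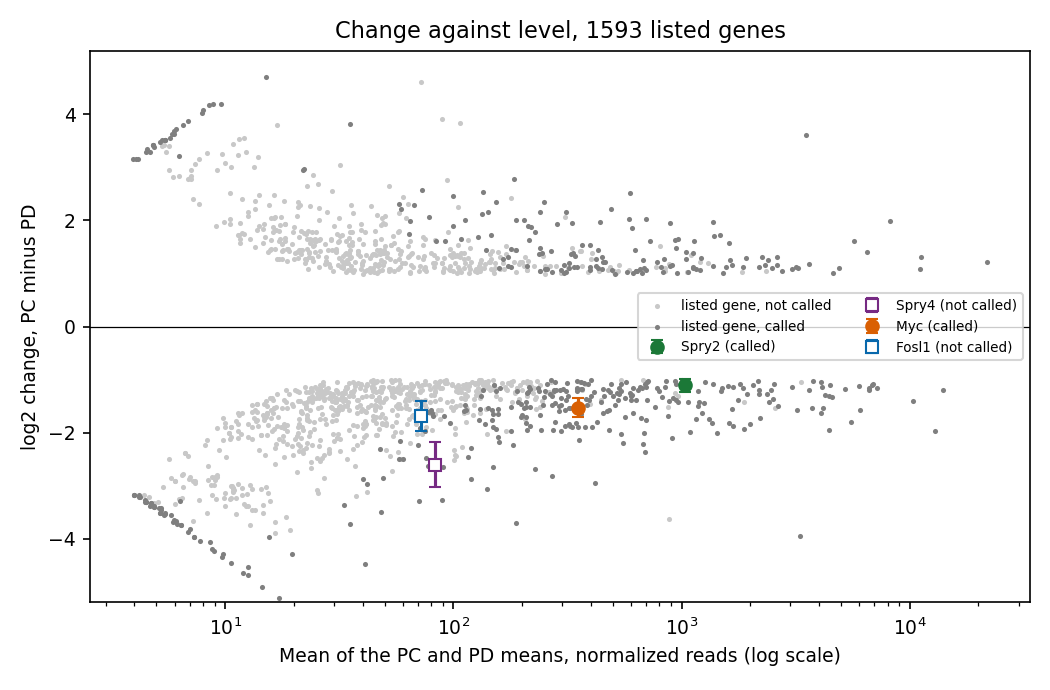
log2 change, PC minus PD (y axis), against the mean of the PC and PD means in normalized reads (x axis, log scale) for the listed genes, with 7 genes beyond the y range left out. Spry2 and Myc (filled circles, with SE bars) lie among abundant called genes, and Spry4 and Fosl1 (open squares) lie at lower levels and were not called.

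Levels of the genes were set against each other per kilobase of exon in GENCODE M21, which may differ from the annotation the authors counted on. Spry2 had 314.0 ± 14.8 normalized reads per kilobase in PC and 682.0 ± 96.4 in PD (SD, n = 2 each). Myc came next with 66.1 ± 5.55 in PC and 194.0 ± 38.1 in PD. Fosl1 had 16.5 ± 0.931 in PC and 54.7 ± 13.2 in PD, and Spry4 had 4.71 ± 1.48 in PC and 30.4 ± 12.9 in PD. The order from Spry2 down to Spry4 was the same in both groups. Fosl1 and Spry4 differed by more than their SDs in PC, while in PD their ranges of 1 SD overlapped.

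The 2 PD libraries differed in the same direction for all 4 genes. PD replicate 2 exceeded PD replicate 1 by 0.29 for Spry2, 0.89 for Spry4, 0.40 for Myc and 0.49 for Fosl1 on the log2 scale. Among the 597 listed genes with a mean of at least 100 normalized reads the median difference was 0.02. A difference as large and in the same direction was seen for 13.4% of those genes at the value of Spry2 and 8.38% at that of Myc. Among the 436 listed genes with a mean of 50 to 200, the range that holds Spry4 and Fosl1, it was 2.98% at the value of Spry4 and 10.3% at that of Fosl1. Between the PC libraries 2 genes were higher in replicate 2 (Spry4 by 0.62, Myc by 0.17) and 2 lower (Spry2 with -0.10, Fosl1 with -0.11). Among other genes with a tie to ERK, PD replicate 2 also exceeded PD replicate 1 for Dusp4 by 0.43, Plaur by 0.37 and Dusp6 by 0.23, whereas Fosb and Dusp9 gave -0.23 and -0.09. Of the 11 other listed genes in the ERK, MYC and FGF pathway lists, PD replicate 2 was the higher in 5 and the lower in 6, and among the 6 FGF genes it was the higher in 2. The part of this difference in the results was not tested, and without PD replicate 2 the log2 changes were -0.97 for Spry2, -2.16 for Spry4, -1.33 for Myc and -1.44 for Fosl1.

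**Figure D3:**
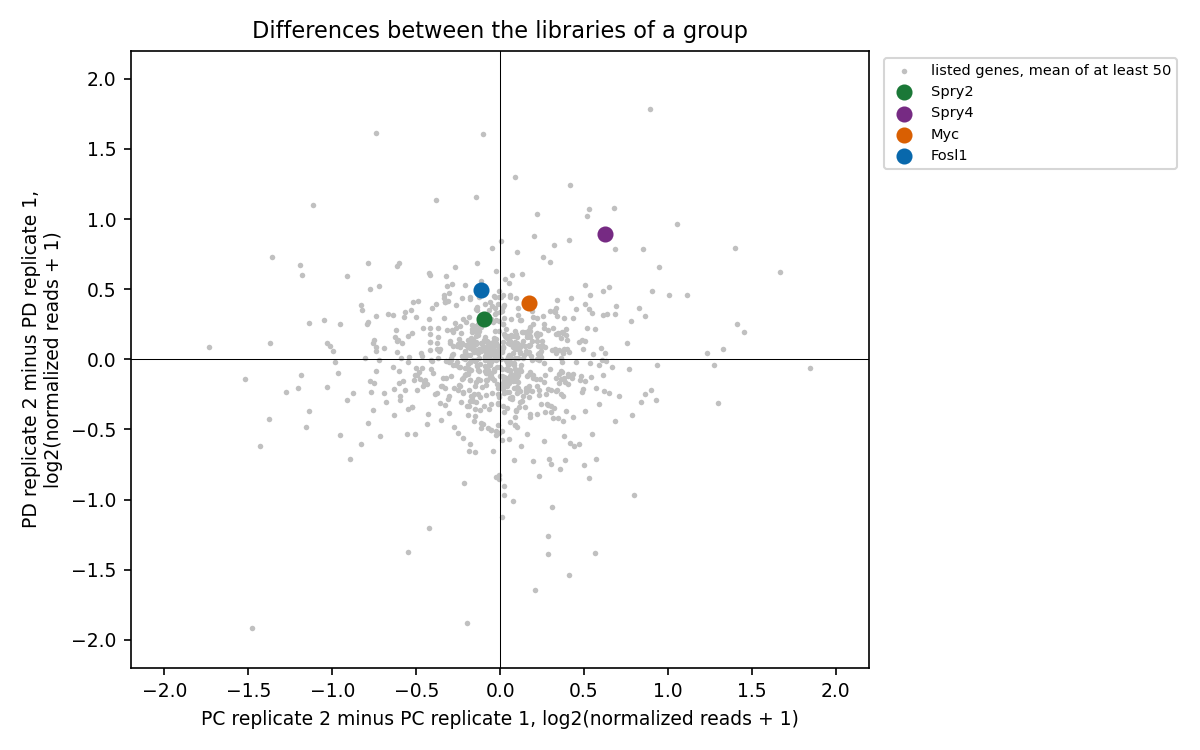
Difference between the libraries of a group on the log2(normalized reads + 1) scale, PC replicate 2 minus replicate 1 (x axis) against PD replicate 2 minus replicate 1 (y axis). Grey points are listed genes with a mean of at least 50 normalized reads, 4 of which lie outside the range shown; Spry2, Spry4, Myc and Fosl1 all lie above 0 on the PD axis, from 0.29 to 0.89.

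The other genes of the pathway were taken from 10 lists that hold 160 genes in all. Of these, 15 were listed, 14 with lower and 1 with higher values in PC; 8 fell and 1 rose (limma with Benjamini-Hochberg adjustment). Over all listed genes 61.5% were lower, 19.8% fell and 11.2% rose. The median log2 change of the 15 genes was -1.68, beside -1.17 over all listed genes and -1.53 over those with lower values. The lists were chosen with results of these data known, and the table was selected on the same samples, so these counts describe the listed genes and are not independent evidence of a direction.

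Of 19 feedback inhibitors of ERK signalling 5 were listed: Spry2, Spry4 and the phosphatases Dusp4, Dusp6 and Dusp9. Spry2 and Dusp6 fell and Dusp9 rose, so the phosphatase genes did not all go one way. Dusp6, a cytoplasmic phosphatase of ERK, had 467.3 and 418.7 normalized reads in PC, against 863.0 and 1015.5 in PD, with a log2 change of -1.08 (SE 0.13, limma, Benjamini-Hochberg adjusted p = 0.0306). Dusp9, a related phosphatase, had 29498.0 and 31513.8 in PC, against 13548.5 and 12741.0 in PD, a log2 change of 1.21 (SE 0.09, limma, Benjamini-Hochberg adjusted p = 0.0132). Dusp4, a nuclear phosphatase, had 101.1 and 89.2 in PC against 176.5 and 238.3 in PD, which missed the threshold (limma, Benjamini-Hochberg adjusted p = 0.132). The remaining Sprouty genes Spry1 and Spry3 and the related Spred1, Spred2 and Spred3 are not analysed here.

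Of 18 immediate early and AP-1 genes Fosl1 and Fosb were listed, and neither passed. Fosb, another partner of JUN proteins in AP-1, had 5.8 and 15.5 normalized reads in PC, against 57.2 and 48.6 in PD (limma, Benjamini-Hochberg adjusted p = 0.219). Fos, Fosl2, Jun, Junb, Jund and Egr1 are not analysed here. Of 17 genes linked to FOSL1 and AP-1 as targets, Plaur, the urokinase receptor, was the 1 listed. It had 148.3 and 145.1 normalized reads in PC, against 484.8 and 626.0 in PD, with a log2 change of -1.90 (SE 0.17; limma, Benjamini-Hochberg adjusted p = 0.0143).

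Myc was the 1 listed gene of 13 in the MYC network of paralogs, dimer partners and antagonists. Of 20 genes of growth and ribosome production that MYC activates, among them Odc1, Ncl and Npm1, 0 were in the table. Absence from the table gives neither a level nor a direction.

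Of 20 FGF ligands, receptors and cofactors 6 were listed, all with lower values in PC. The 4 that fell were Fgf5, Fgf15, Fgf17 and the FGF carrier gene Fgfbp1. Over all listed genes 61.5% were lower and 19.8% fell. Fgf15, the mouse counterpart of human FGF19, had 555.1 and 580.5 normalized reads in PC, against 2311.7 and 2266.5 in PD. Fgf5, which marks the epiblast after implantation, had 75.4 and 48.8 in PC and 387.9 and 401.4 in PD. Fgf17 had 211.3 and 223.6 in PC and 610.9 and 530.6 in PD, and Fgfbp1 had 206.3 and 274.8 in PC and 1091.9 and 1132.8 in PD. The log2 changes of these called genes ran from -1.39 for Fgf17 to -2.68 for Fgf5 (limma, Benjamini-Hochberg adjusted p of 0.0157 and 0.0148 for these). Fgf1 and Fgf18 missed the threshold (limma, Benjamini-Hochberg adjusted p = 0.0700 and 0.198). Of 31 signal carriers from receptor to ERK, 11 binding partners of Sprouty proteins, 11 ETS factors and other targets of ERK, and the 3 protein kinase D genes, 0 were in the table.

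**Figure D4:**
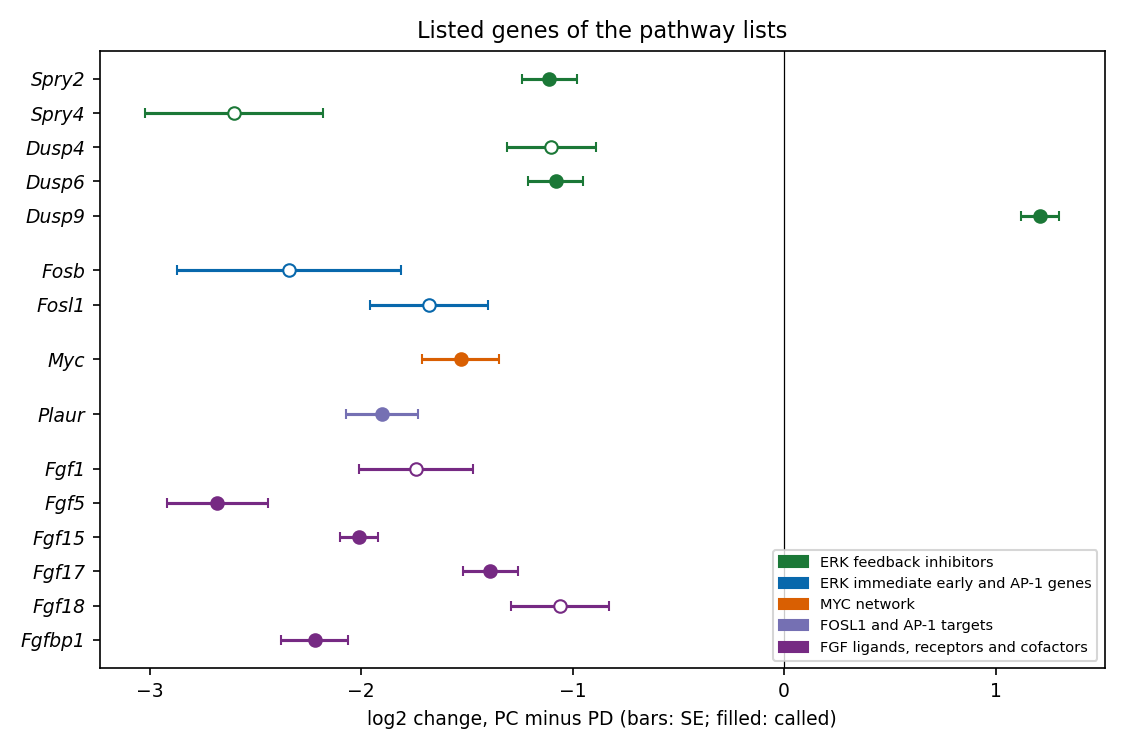
log2 change, PC minus PD, with its SE (x axis) for the 15 listed genes of the pathway lists (rows, coloured by list), filled where limma with Benjamini-Hochberg adjustment called the gene. Dusp9 is the 1 gene to the right of 0, at 1.21, and the others lie between -2.68 and -1.06.

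Annotation in the deposited table was searched for what the 4 genes share, with terms picked after their values were seen. Spry2 carried 114 Gene Ontology terms, Spry4 76, Myc 140 and Fosl1 99, and 9 terms were common to all. Spry2 and Spry4 shared 34 terms, fewer than the 47 shared by Spry2 and Myc, and Myc and Fosl1 shared 61. The term for the MAPK cascade was given to Spry2, Spry4 and Myc but not to Fosl1. It was held by 58 listed genes, 40 lower and 18 higher, with 16 falls and 7 rises among those called and a median log2 change of -1.27. Of these genes 69.0% were lower, 27.6% fell and 12.1% rose, beside 61.5%, 19.8% and 11.2% of all listed genes. In the KEGG MAPK signaling pathway, which includes Myc but not the Sprouty genes or Fosl1, 20 of 26 listed genes were lower (76.9%), with 7 falls (26.9%) and 3 rises (11.5%) called, beside the same 61.5%, 19.8% and 11.2%. Myc and Fosl1 were both placed in the KEGG Wnt signaling pathway, where 10 of 14 listed genes were lower (71.4%, against 61.5% of all listed genes). No test was made of these shares, and they are no result about the 4 genes.

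Genes with the most similar pattern were found by Euclidean distance between log2 profiles over the 4 libraries, each centred on its own mean, among 597 listed genes with a mean of at least 100 normalized reads. Nearest to Spry2 were Spin2c of the spindlin family (distance 0.0378), Dusp6 (0.0657) and A730049H05Rik (0.0748). Near to Myc were the lysophosphatidic acid receptor gene Lpar6 (0.0776) and Gm38103 (0.161). Fosl1 was closest to Slc7a7, a cationic amino acid transporter gene (0.136), to the adenosine deaminase gene Ada (0.176) and to 9530053A07Rik (0.179). Spry4 had no neighbour as close: the integrin gene Itgb2 was at 0.388, Enox1 at 0.50 and Ms4a10 at 0.557. The means of Spry4 and Fosl1 lay below 100, so listed genes of their own level were outside the pool. Among the 4 genes, Myc and Fosl1 were closest to each other (0.257) and Spry2 and Spry4 farthest apart (1.63). With 4 libraries such distances mostly record the size of the PC to PD change, and they describe these libraries only.

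Markers of cell types other than stem cells were read in the same libraries. Of 10 extra-embryonic endoderm markers, 3 were listed (Gata6, Sox17 and Foxa1), with summed levels of 895.6 and 1063.5 normalized reads in PC and 419.9 and 397.8 in PD. Listed markers of fibroblasts (1 of 8), trophoblast (1 of 6), muscle (3 of 6), endothelium (2 of 6) and neural progenitors (1 of 6) all had lower values in PC. The summed levels of the fibroblast marker were 38.9 and 48.8 in PC and 89.2 and 113.6 in PD, and those of the endothelial markers were 1498.7 and 1334.7 in PC and 3342.5 and 3526.6 in PD. For trophoblast they were 194.7 and 133.2 in PC and 380.1 and 384.0 in PD. Muscle markers summed to 304.1 and 293.8 in PC and 811.6 and 626.0 in PD, and the neural marker stood at 274.2 and 270 in PC and 1054.1 and 1142.9 in PD. None of these listed markers was at 0 in any library, and the part of such cells in the values of Spry2, Spry4, Myc and Fosl1 was not tested.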

How the data were processed

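RNA from 46C mouse embryonic stem cells, extracted with Trizol per the labels' protocols, was sequenced in 2 PC and 2 PD libraries, grouped by their titles. The authors deposited log2 values per library and, per the file headers, p-values and false discovery rates of their own test. Undoing the log and subtracting 1 gave whole multiples of 1 step per library for 100% of values within 0.001 reads, so the deposited log2 values are reads divided by a size factor (1.207 and 0.841 for PC, 1.031 and 1.091 for PD), plus 1. Bowtie 0.12.2 and mm9 stand in the submitters' processing notes without a role; counting tool, annotation and test are not given in the sources. Replicates differed beyond sampling noise, with a chi-square of 6.81 per gene over 1437 genes in PC and of 7.12 over 1514 genes in PD.

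limma 3.58.1 (R 4.3.3) was fitted to log2(value + 1) of all 1593 genes with a trended prior and 2 residual degrees of freedom, after a minimum mean of 1 normalized read that removed 0 genes. Log2 changes on this scale understate the change of genes with few reads. Benjamini-Hochberg adjustment ran over the 31432 genes that the deposited p-values and false discovery rates imply, with unlisted genes taken to have larger p-values, and an adjusted p under 0.05 was called. The spread was estimated from genes selected for small p in these samples, which can make it too small. Poisson intervals cover counting error only. The step was run on simulated reads of the 1593 listed genes, with a dispersion set to 0.02 and adjustment over those genes alone. That setting lacks the selection of the table and the adjustment over 31432 genes, so it does not test the calls made here. The genes and lists were chosen with earlier results of these data known. Named genes were the 4 genes, every listed gene of the pathway lists, and the 3 nearest profiles for each, 1 of which is not reported here. Alternatives were a replicate block, each library left out, pseudocounts of 0.1 and 10, other filters, an untrended prior, voom, the authors' false discovery rates, no size factors and adjustment over the listed genes alone.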

Additional observations from a re-analysis of the deposited data

How the results depend on the processing

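All 56 alternative values for Spry2, Spry4, Myc and Fosl1 kept their sign, which the selection of the table nearly fixes. Of the 56, 35 kept their side of the threshold. These 35 count the fit with no filter, which repeats the main fit because the filter removed 0 genes. They also count fits with 1 library left out, whose calls are not read, so the number is no measure of how stable the calls were. Leaving out 1 library gave log2 changes from -1.25 to -0.97 for Spry2, -3.05 to -2.16 for Spry4, -1.74 to -1.33 for Myc and -1.93 to -1.44 for Fosl1, with 33 to 61 genes called; 1 residual degree of freedom was left, on the assumption that the single library varies as the other group does. An untrended prior left 1 gene called, H1fx (named after its values were seen), and Spry2 (-1.11) and Myc (-1.53) did not pass. Without size factors 64 genes were called, and Spry2 (-1.18) and Myc (-1.61) did not pass. That fit leaves the depth differences between libraries uncorrected. With a replicate block 1176 genes were called and Spry4 (-2.60) and Fosl1 (-1.68) passed. That fit had 1 residual degree of freedom and 1000 prior degrees of freedom, against 3.11 without the block. The deviations of same-numbered libraries were uncorrelated (r = -0.00344 over 597 genes with a mean of at least 100), which gives no sign of pairing. Spry4 (-2.60) and Fosl1 (-1.68) also passed with a minimum mean of 10 and when adjusted over the listed genes alone (1536 called). Both passed in the authors' deposited table (1119 under 0.05). At a pseudocount of 10 Spry4 (-2.21) passed and Fosl1 did not. Some calls lay close to the threshold. At a pseudocount of 0.1 Spry2 and Myc just passed (limma, Benjamini-Hochberg adjusted p = 0.0498 for each), and Spry4 and Fosl1 did not pass. With voom Spry2 and Myc passed, and Spry4 and Fosl1 just missed (limma-voom, Benjamini-Hochberg adjusted p = 0.0503 and 0.0545). The cause of these shifts was not tested. The difference between the Sprouty genes ran from -1.85 to -1.13 with a library left out. Spry4 and Fosl1 had 21 to 42 reads in the PC libraries, and the adjustment for unlisted genes leans towards fewer calls.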
